A study of Mus musculus with 6 samples.

Results

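GABA-B receptors, the KCTD proteins bound to them and the GIRK potassium channels they open were followed as one signalling unit in mouse brain tissue with and without Gb5. The set was defined by 10 gene symbols, and its members were all array probes annotated to 1 of these symbols alone: 24 probes of 8 genes, out of 45037 probes and 18193 genes with such a probe in the series. Gabbr1 had 4 single-gene probes, Kctd8 and Kctd12b 2 each, Kctd16 1, Kcnj3 4, Kcnj5 2, Kcnj6 5 and Kcnj9 4. No probe was annotated to Gabbr2, and the only probe for Kctd12 was also annotated to the microRNA gene Mir5130, so neither was measured on its own.

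The tested mice were Gb5-deficient (3 arrays, numbered 4 to 6, labelled KO) and were compared with wild type (WT, 3 arrays, numbered 1 to 3). Each array holds 1 biological replicate, the tissue label is brain and the series title names the cerebellum. Per the labels' protocols the mice were age- and sex-matched littermates; which of them were littermates, their strain and their age are not given there. How Gb5 was removed and in which cells is also not given in the labels, and all values are deposited log2 signals normalized by RMA.

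The GABA-B receptor is an obligate dimer of a GABA-binding subunit, encoded by Gabbr1, and a G protein-coupling subunit, encoded by Gabbr2. It acts through Gi/o proteins, whose released beta-gamma dimers open G protein-gated inwardly rectifying potassium (GIRK) channels and hyperpolarize the neuron. KCTD8, KCTD12, KCTD12b and KCTD16 bind the receptor's tail and set the size and time course of its response. Gb5, encoded by Gnb5, is an atypical G protein beta subunit that pairs with RGS proteins of the R7 family, which speed the switching-off of Gi/o signals and hence the closing of GIRK channels.

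The brighter of 2 Gnb5 probes read 3.65, 3.36 and 2.96 (log2) on Gb5-deficient arrays 4, 5 and 6, against 8.80, 8.51 and 8.70 on WT arrays 1, 2 and 3. Its log2 fold change was -5.35 (limma SE 0.18; adjusted p = 4.33e-06). The dimmer probe read 4.16, 4.21 and 4.36 on Gb5-deficient arrays and 4.77, 4.89 and 4.98 on WT arrays, a log2 fold change of -0.64 that did not pass (limma adjusted p = 0.288 over all probes), and the mean of both probes gave -2.99. Pearson's r over all probes, which are not independent replicates, lay between 0.991 and 0.997 for pairs of arrays. Gb5-deficient array 6 stood apart: Eif2s3y, a Y-linked gene, read 11.80 there and from 3.19 to 3.43 on the other 5 arrays, although the labels describe sex-matched mice. The difference between 3' and 5' Gapdh control probes, a measure of RNA integrity, was 1.14, 1.07 and 1.58 on Gb5-deficient arrays 4, 5 and 6. It was 1.03, 1.04 and 1.03 on WT arrays 1, 2 and 3. Every Gb5-deficient array was thus above every WT array, with array 6 furthest off. The part of RNA integrity in the values below was not tested. The fold changes of the members and the listed pathway genes, the subunit balances and the likeness search were also computed without array 6. Leaving it out does not remove the difference in RNA integrity between genotypes.

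Purkinje and granule cell markers were bright. The 4 measured Purkinje cell markers lay at the 92.9th percentile of all probe means or above, and the 6 granule cell markers ran from the 77.6th to the 99.7th. The 6 interneuron markers ran from the 52.0th to the 98.6th and the 3 unipolar brush cell markers from the 7.68th (Lmx1a) to the 83.3rd. The 4 measured forebrain markers ran from the 27.8th to the 58.4th and the 6 brainstem and midbrain markers from the 12.7th to the 93.5th (Slc6a3). For 5 of the marker lists the array means did not overlap between genotypes. For single genes the genotypes did not overlap in 14.9% of all genes, and no such share was computed for means of several genes. Interneuron markers were 9.16 to 9.21 (log2) on Gb5-deficient arrays and 8.94 to 9.10 on WT arrays. Oligodendrocyte markers were 12.44 to 12.55 on Gb5-deficient arrays and 12.65 to 12.69 on WT arrays. Meningeal markers were 9.92 to 10.21 on Gb5-deficient arrays and 10.23 to 10.37 on WT arrays, and blood markers were 8.18 to 8.42 on Gb5-deficient arrays and 8.90 to 9.65 on WT arrays. Forebrain markers, dim throughout, were 5.62 to 5.65 on Gb5-deficient arrays and 5.66 to 5.69 on WT arrays. Not all genes followed their list mean in Gb5-deficient tissue. Of oligodendrocyte markers, Mal, Mog and Mobp were lower without overlap, but mean Mbp was higher. Of blood markers, Alas2, Slc4a1 and Hbb-b2 were lower without overlap, but mean Hba-a2 was higher. Fmod (meningeal) and Tbr1 (forebrain) were the only genes of their lists without overlap, both lower. Means of Col1a2 (meningeal), Neurod6 and Lhx2 (forebrain) were higher, and mean Gad1 (interneuron) was lower. Choroid plexus markers overlapped between genotypes, but all 5 were lowest on Gb5-deficient array 4. Their mean was 7.07 on that array, up to 8.63 on the other Gb5-deficient arrays and 7.81 to 9.12 on WT arrays. Ttr read 11.69 on array 4 and 13.38 to 13.79 on the other arrays. The part of these differences in the values below was not tested, and in bulk tissue fewer cells of a type and less RNA per cell cannot be told apart.

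None of the 8 measured genes changed at an adjusted p of 0.05, and neither did any of the 24 probes when each was tested on its own. Over all genes 5 of 14067 passed (1 higher and 4 lower in Gb5-deficient tissue), a share of 0.0355%, and over all probes 10 of 45037, a share of 0.0222%. A gene took the value of whichever of its probes was brightest on average, and all 8 genes lay above the low-signal filter, the 30th percentile of probe means (4.70 on the log2 scale). Of the 24 probes 16 lay above that level and 8 did not. The adjusted p of the 8 genes ran from 0.630 to 0.997 (limma, Benjamini-Hochberg over all genes).

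By count, 4 of the 8 genes had higher and 4 had lower values in Gb5-deficient tissue; 56.7% of all genes were higher. Among probes 12 were higher and 12 lower, against 53.5% higher over all probes. The median log2 fold change was 0.05 for the 8 genes and 0.03 for all genes tested. Their median absolute log2 fold change was 0.09, against 0.11 for all genes, and the median SE was 0.13 for the 8 genes and 0.12 for all genes. An unadjusted p under 0.05 was found for 0 of the 8 genes (8.57% of all genes) and for 1 of the 24 probes (7.61% of all probes). Genotypes did not overlap for 1 of the 8 genes (14.9% of all genes) and for 2 of the 24 probes (13.6% of all probes). These shares were near or below those of all genes and probes.

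**Figure D1:**
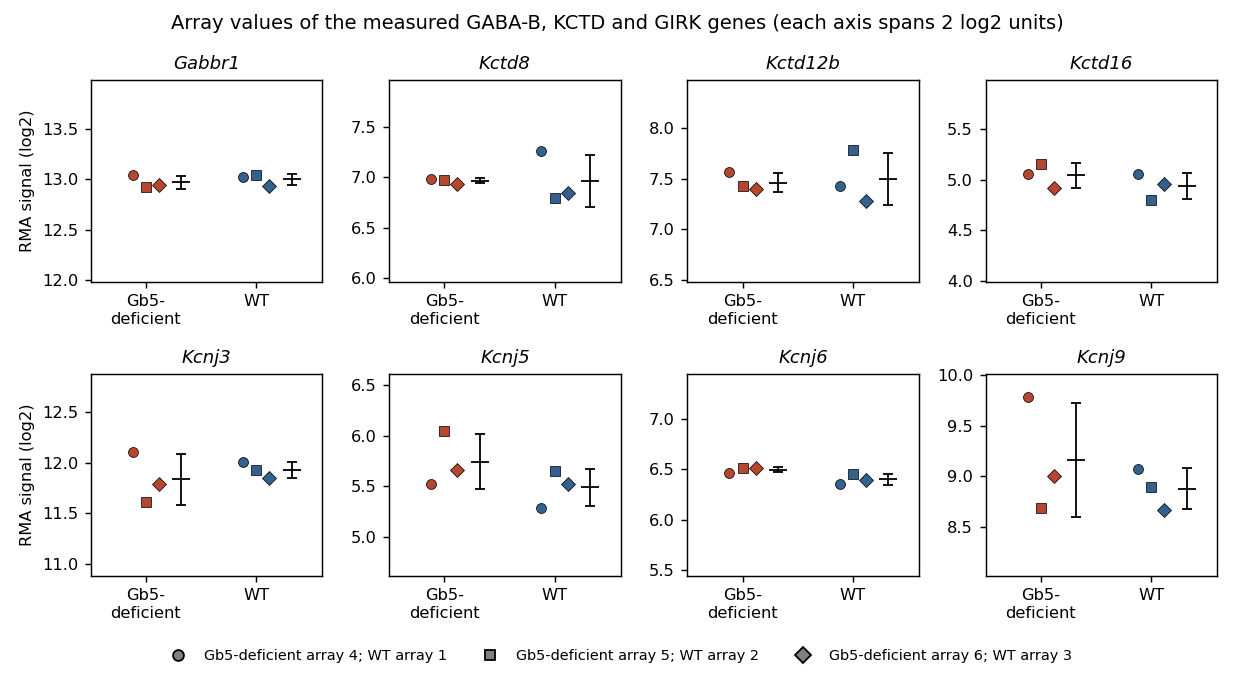
RMA signal (log2, vertical axes, each spanning 2 units) of the 8 measured genes on the 3 Gb5-deficient arrays (left, red) and the 3 WT arrays (right, blue); bars give the mean ± SD and marker shapes tell the arrays of a genotype apart. Kcnj6 is the only one of the 8 genes whose genotypes do not overlap, and Kcnj9 spreads most, from 8.69 to 9.78 among Gb5-deficient arrays.

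Gabbr1, the GABA-binding receptor subunit, gave the tightest measurement. Its brightest probe read 13.05, 12.93 and 12.94 (log2) on Gb5-deficient arrays 4, 5 and 6, against 13.02, 13.04 and 12.94 on WT arrays 1, 2 and 3. The genotypes overlapped, and WT array 3 and Gb5-deficient array 6 had nearly the same value. Means were 12.97 ± 0.07 in Gb5-deficient and 13.00 ± 0.06 in WT tissue (SD, n = 3 each). The log2 fold change was -0.03 (SE 0.05; limma adjusted p = 0.856), with a 95% interval from -0.15 to 0.09, which is a fold of 0.903 to 1.07. In WT tissue this probe lay at the 99.3rd percentile of all probes.

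The other Gabbr1 probes had values on the same side of 0 with wider intervals. The next brightest read 11.16, 11.03 and 11.21 on Gb5-deficient arrays and 11.12, 11.21 and 11.16 on WT arrays, a log2 fold change of -0.03 (adjusted p = 0.935 over all probes). The probe whose target is the RefSeq transcript NM_019439 read 7.03, 7.93 and 7.23 on Gb5-deficient arrays and 7.49, 7.45 and 7.60 on WT arrays, so that Gb5-deficient array 5 was the highest of all and the other 2 were the lowest. Its log2 fold change was -0.12, with an interval from -0.60 to 0.37. The dimmest, at the 10.4th percentile in WT tissue, gave -0.12 (adjusted p = 0.761). All 4 were lower in Gb5-deficient tissue, and none passed.

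KCTD proteins are auxiliary subunits of the receptor, and the representative probes of the 3 measured members stayed within 0.11 log2 units of WT. Kctd8 read 6.98, 6.98 and 6.94 on Gb5-deficient arrays, against 7.26, 6.79 and 6.85 on WT arrays. All 3 Gb5-deficient values lay inside the WT range, with means of 6.97 ± 0.02 in Gb5-deficient and 6.97 ± 0.26 in WT tissue (SD, n = 3 each). The log2 fold change was -0.0012 (SE 0.14; limma adjusted p = 0.997), with an interval from -0.32 to 0.32. Another Kctd8 probe read 5.15, 5.58 and 5.65 on Gb5-deficient arrays and 5.57, 4.74 and 5.32 on WT arrays, a log2 fold change of 0.25 with an interval from -0.25 to 0.76. It was 0.018 without WT array 2, the lowest, and 0.43 without WT array 1.

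Kctd12b, an X-linked relative of Kctd12, read 7.56, 7.42 and 7.40 on Gb5-deficient arrays, against 7.42, 7.78 and 7.28 on WT arrays. WT arrays held both the highest and the lowest value, and array 6, which stood apart in sex-linked genes, lay among the others. The log2 fold change was -0.04 (SE 0.14; limma adjusted p = 0.939). A dimmer Kctd12b probe gave 0.02 (adjusted p = 0.980 over all probes). Kctd16, which binds the receptor without the desensitization that KCTD12 confers, was dim: its only probe lay at the 32.7th percentile in WT tissue. It read 5.06, 5.15 and 4.91 on Gb5-deficient arrays and 5.06, 4.80 and 4.95 on WT arrays, a log2 fold change of 0.11 with an interval from -0.18 to 0.39 (limma adjusted p = 0.773).

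For Kctd12, the auxiliary subunit that makes GABA-B currents desensitize, only the probe annotated to both Kctd12 and Mir5130 could be read. In the RefSeq annotation (GRCm38.p6) the 84-base Mir5130 hairpin lies inside Kctd12 on the same strand, 5 bases from the start of the gene. The mature microRNA, at chr14:102982608-102982631 on the minus strand, is shown with its seed (bases 2 to 8) in capitals because the probe is annotated to it as well.
mmu-miR-5130: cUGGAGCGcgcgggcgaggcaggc
The shared probe read 10.10, 9.62 and 9.89 on Gb5-deficient arrays, against 10.24, 10.08 and 9.88 on WT arrays. Gb5-deficient array 5 was the lowest, and the others overlapped. Its log2 fold change was -0.20 with an interval from -0.52 to 0.12 (limma adjusted p = 0.736 over all probes), and it was not counted among the 24.

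Because GABA-B receptors lower cyclic AMP through Gi/o, the 250 bases before the annotated starts were searched for the palindromic cyclic AMP response element TGACGTCA, which reads the same on both strands, and for its core TGACG on either strand, which the palindrome contains. RefSeq (GRCm38.p6) windows were used for 9 starts of 8 listed genes: Gabbr1, Gabbr2, Kctd8, Kctd12, Kcnj3, Kcnj5, Kcnj9 and, with 2 starts 141 kb apart, Kcnj6. The other listed genes, Kctd12b and Kctd16, were not searched. The palindrome was in 1 of the 9, that of Kctd8, against 1.55% of all 32851 windows of the same length. The core was in 2 of the 9, those of Kctd8 and Kctd12, against 17.8% of all windows. Of these genes Kctd8 was the one with a complete element, so the 68 bases before its start, chr5:69341710-69341777 on the minus strand, are shown with the element in capitals.
Kctd8: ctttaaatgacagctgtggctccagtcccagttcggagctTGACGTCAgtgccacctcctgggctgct
The element begins 28 bases before the start. A match is a description of the letters only, and the Kctd8 signal itself did not differ between genotypes beyond the spread of the arrays.

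GIRK channels are tetramers, in brain mostly of Kcnj3 (GIRK1), Kcnj6 (GIRK2) and Kcnj9 (GIRK3), while Kcnj5 (GIRK4) is best known from the heart. No GIRK gene passed; 3 of the 4 had higher values in Gb5-deficient tissue, with log2 fold changes of 0.10 for Kcnj6, 0.25 for Kcnj5 and 0.28 for Kcnj9, and Kcnj3 had -0.09. Their median was 0.17, against 0.03 for all genes tested, of which 56.7% were higher. None of the 4 intervals excluded 0 with all 6 arrays. The median rested in part on 1 array: without Gb5-deficient array 4 the values were -0.23 for Kcnj3, 0.36 for Kcnj5, 0.11 for Kcnj6 and -0.03 for Kcnj9.

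Kcnj3, the subunit that lends GIRK channels their large response but reaches the surface only with a partner, read 12.11, 11.61 and 11.79 on Gb5-deficient arrays, against 12.01, 11.93 and 11.84 on WT arrays. Gb5-deficient arrays held the highest and the 2 lowest values. Means were 11.84 ± 0.25 in Gb5-deficient and 11.93 ± 0.08 in WT tissue (SD, n = 3 each), with an interval of the log2 fold change from -0.36 to 0.18 (limma adjusted p = 0.796). The next 2 probes in brightness gave log2 fold changes of -0.17 and -0.26, and the dimmest, at the 16.5th percentile in WT tissue, 0.17. Without Gb5-deficient array 4 the log2 fold change of Kcnj3 was -0.23 (adjusted p = 0.288), and without Gb5-deficient array 5 it was 0.02, so its size and sign rested on which of these arrays was kept.

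Kcnj6, the subunit that can form channels alone and carries the weaver mutation known for its loss of cerebellar granule cells, was the member whose genotypes did not overlap. Its brightest probe read 6.46, 6.51 and 6.51 on Gb5-deficient arrays, against 6.35, 6.45 and 6.39 on WT arrays. All 3 Gb5-deficient values were above all WT values, but by 0.01 at the nearest pair. The log2 fold change was 0.10 (SE 0.10; limma adjusted p = 0.743), with an interval from -0.13 to 0.33. It stayed between 0.07 and 0.12 when each array was left out.

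The probes of Kcnj6 did not go one way. A probe whose target is the transcript AB029502 read 5.47, 4.91 and 5.88 on Gb5-deficient arrays, against 5.78, 5.98 and 5.90 on WT arrays. Gb5-deficient arrays 4 and 5 lay below all WT arrays, and array 6 lay among them. Its log2 fold change of -0.46 was the largest of the 24 probes in size, with an interval from -0.97 to 0.04 (limma adjusted p = 0.669 over all probes). Without Gb5-deficient array 5 it was -0.21, and without array 6 it was -0.69 (adjusted p = 0.940). The 3 other Kcnj6 probes were dim, at the 3.62nd to the 17.9th percentile in WT tissue, with log2 fold changes of 0.05, 0.18 and -0.09. Which transcripts these probes separate was not analysed here.

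Kcnj5 was dim on both of its probes. The brighter read 5.52, 6.05 and 5.66 on Gb5-deficient arrays, against 5.29, 5.65 and 5.53 on WT arrays. The genotypes overlapped, with Gb5-deficient array 5 highest and WT array 1 lowest. The log2 fold change was 0.25 (SE 0.17; limma adjusted p = 0.630), with an interval from -0.12 to 0.63, and it was 0.10 without Gb5-deficient array 5 and 0.15 without WT array 1. The other Kcnj5 probe was the only one of the 24 with an unadjusted p under 0.05: it read 3.06, 3.16 and 3.03 on Gb5-deficient arrays and 2.96, 2.80 and 2.84 on WT arrays, a log2 fold change of 0.21 (limma unadjusted p = 0.0219 and adjusted p = 0.621). At the 3.17th percentile of all probes in WT tissue, its level was near the bottom of the array's range.

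Kcnj9, a subunit that joins other GIRK subunits and modulates the surface level of the channels, varied most between arrays. Its brightest probe read 9.78, 8.69 and 9.001 on Gb5-deficient arrays, against 9.07, 8.89 and 8.66 on WT arrays. Gb5-deficient array 4 stood above all others, while arrays 5 and 6 lay among the WT values. Means were 9.16 ± 0.56 in Gb5-deficient and 8.88 ± 0.20 in WT tissue (SD, n = 3 each), and the interval of the log2 fold change ran from -0.29 to 0.86 (limma adjusted p = 0.706). Without Gb5-deficient array 4 the value was -0.03, without array 5 it was 0.52 (adjusted p = 0.586), and without array 6 it was 0.36. Without WT array 3 it was 0.18.

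The next Kcnj9 probe did not show array 4 apart: it read 7.63, 7.69 and 8.003 on Gb5-deficient arrays and 7.84, 7.81 and 7.60 on WT arrays. Its log2 fold change was 0.03, with an interval from -0.29 to 0.35. Both remaining probes were dim and gave log2 fold changes of 0.01 and -0.03. The first read 4.32, 3.92 and 4.13 on Gb5-deficient arrays and 4.25, 4.13 and 3.95 on WT arrays. The other read 4.31, 4.09 and 3.73 on Gb5-deficient arrays and 4.16, 4.06 and 4.0007 on WT arrays. Array 4 was thus the highest on 3 of the 4 probes, by a small margin on both dim ones.

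**Figure D2:**
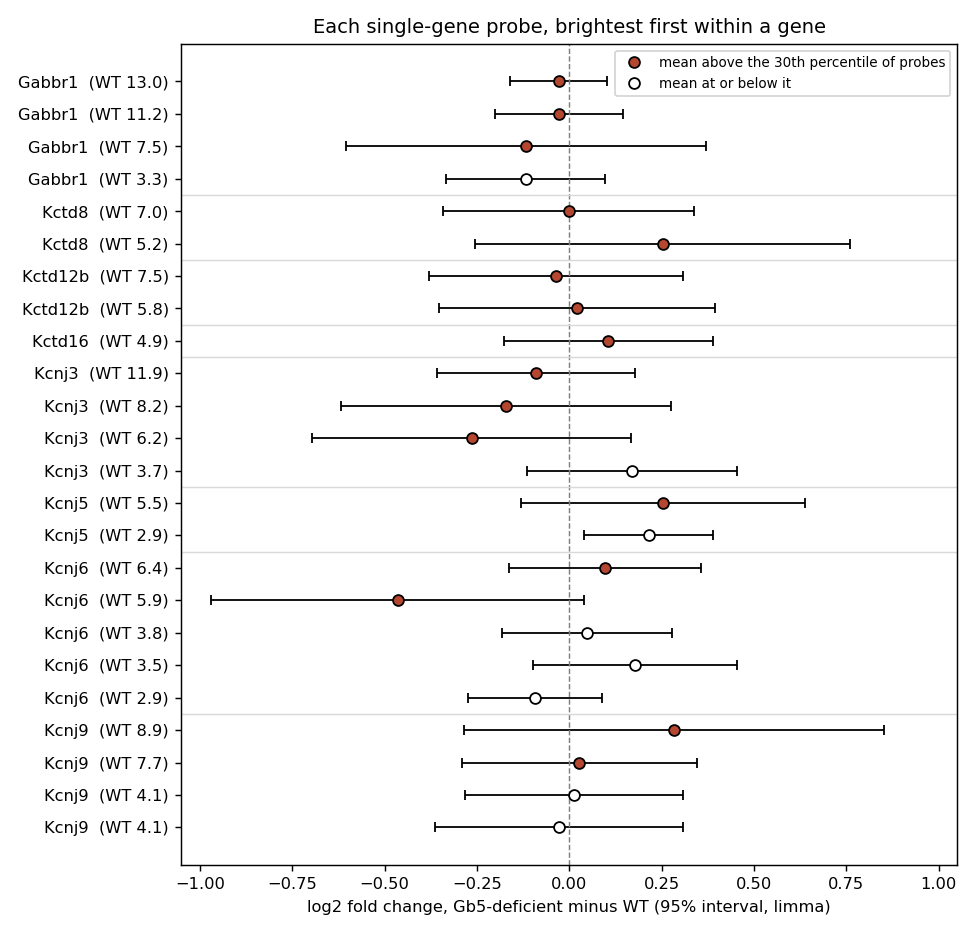
Log2 fold change, Gb5-deficient minus WT (horizontal axis), with its 95% limma interval for each of the 24 single-gene probes; the WT mean (log2) stands beside each gene symbol, and open circles mark the 8 probes at or below the 30th percentile of probe means. 23 of the 24 intervals include 0, and the Kcnj5 probe of WT mean 2.9 is the one that does not.

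Seen across the 8 genes, the folds that the intervals allow reached from 0.777 (Kctd12b, lower end) to 1.81 (Kcnj9, upper end). In this fit, with its intensity trend, Gabbr1 was bounded most closely and Kcnj9 least. The intervals of Kcnj3 (a fold of 0.780 to 1.13) and Kcnj6 (0.912 to 1.25) leave room for changes smaller than these ends. Without Gb5-deficient array 6, the log2 fold changes were -0.01 for Gabbr1, 0.01 for Kctd8, -0.0035 for Kctd12b, 0.17 for Kctd16, -0.07 for Kcnj3, 0.29 for Kcnj5, 0.09 for Kcnj6 and 0.36 for Kcnj9, and again none passed.

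**Figure D3:**
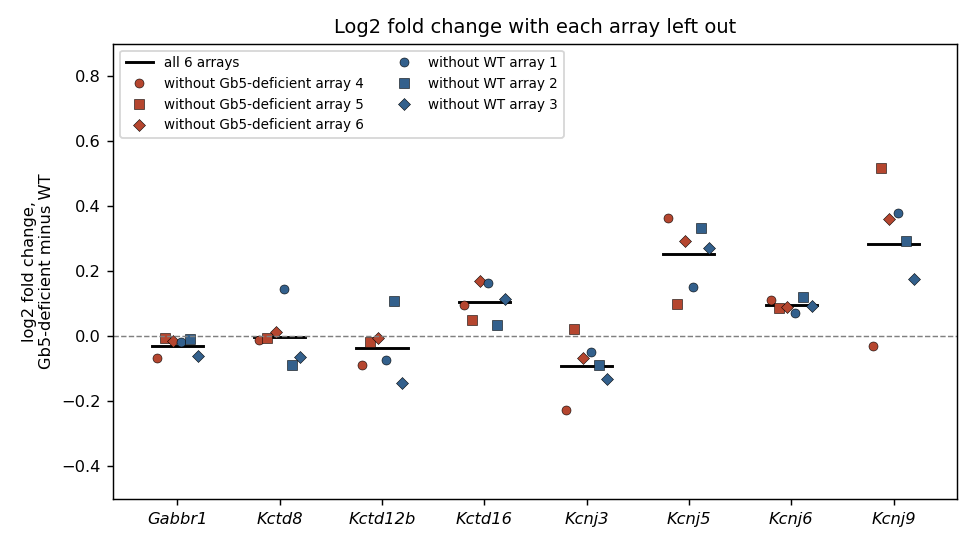
Log2 fold change of the 8 genes, Gb5-deficient minus WT (vertical axis), with all 6 arrays (black line) and with each Gb5-deficient array (red) or WT array (blue) left out. Kcnj9 moves most, from -0.03 without Gb5-deficient array 4 to 0.52 without array 5, and Kcnj6 stays between 0.07 and 0.12.

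Brightness differs between probes for reasons other than RNA level, so the order of the 8 genes was not read from these arrays; only shifts between genotypes of the difference between 2 subunits were compared. For Kcnj3 minus Kcnj9 the difference of log2 signals was 2.32, 2.92 and 2.79 on Gb5-deficient arrays 4, 5 and 6, against 2.94, 3.03 and 3.18 on WT arrays 1, 2 and 3. Every Gb5-deficient value was below every WT value, the nearest pair by 0.02. The shift was -0.37, with an exact two-sided permutation p of 0.1, the smallest that 3 against 3 arrays can give, and 0.3 adjusted over the 3 pairs tested. It was -0.20 without Gb5-deficient array 4 and -0.16 with the mean of each gene's probes.

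The shift was -0.19 for Kcnj3 minus Kcnj6 (exact two-sided permutation p = 0.4), from means of 5.34 ± 0.28 in Gb5-deficient and 5.53 ± 0.11 in WT tissue (SD, n = 3 each). It was -0.34 without Gb5-deficient array 4, -0.065 without Gb5-deficient array 5 and -0.042 with the mean of each gene's probes. For Kcnj6 minus Kcnj9 the shift was -0.19 as well (exact two-sided permutation p = 0.8), with means of -2.67 ± 0.59 in Gb5-deficient and -2.48 ± 0.23 in WT tissue. It was 0.14 without Gb5-deficient array 4. The balance of Gabbr1 and Gabbr2 was not analysed here, since Gabbr2 had no probe.

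Kcnj9 had the largest spread over the 6 arrays among the 8 genes (SD 0.41), and the genes with the most similar pattern were looked up. Likeness was the root mean square difference of values centred on each gene's mean over the 6 arrays, among 14066 other genes. The nearest was Nr4a3, an activity-inducible nuclear receptor, at 0.15, followed by the neurogenic transcription factor Atoh7 at 0.16 and Samd11 at 0.16. Nr4a3 read 11.68, 10.36 and 10.64 on Gb5-deficient arrays, against 11.00, 10.39 and 10.30 on WT arrays. As for Kcnj9, Gb5-deficient array 4 was the highest and the other arrays of that genotype lay among WT values. With 6 arrays and so many genes some will always lie close, and no relation was tested. Without Gb5-deficient array 6 the 3 nearest genes were others, Gm4047, Nab2 and Pcdhb4. Atoh7 then came 4th, Samd11 5th and Nr4a3 7th.

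**Figure D4:**
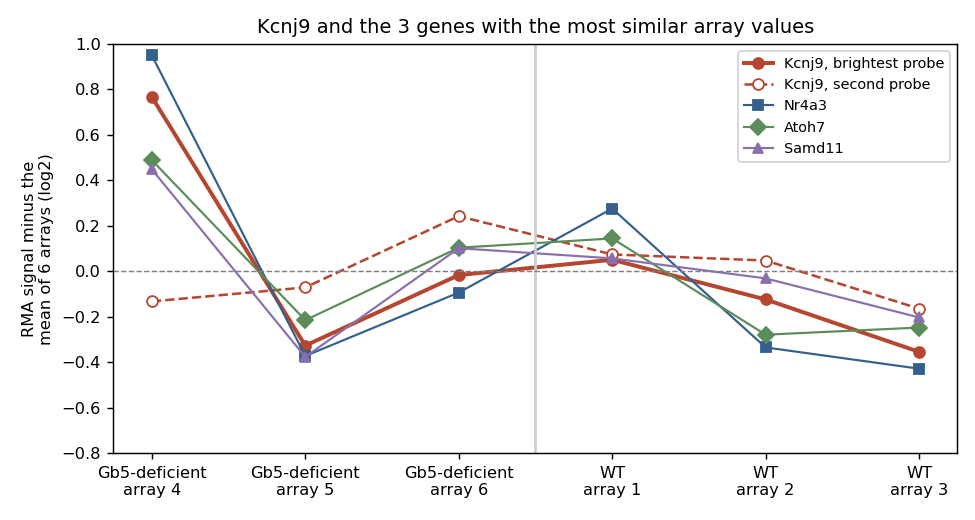
RMA signal minus each row's mean over the 6 arrays (log2, vertical axis) on Gb5-deficient arrays 4 to 6 (left) and WT arrays 1 to 3 (right), for the brightest Kcnj9 probe, the next Kcnj9 probe and the 3 genes of most similar values. The brightest Kcnj9 probe, Nr4a3, Atoh7 and Samd11 are highest on Gb5-deficient array 4, and the dashed line of the other Kcnj9 probe is not.

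Genes that work with the receptor were read from 7 lists. The list of receptor-binding and trafficking proteins had 16 of 16 genes measured and none passing, with 9 higher and 7 lower and a median log2 fold change of 0.02, against 0.03 for all genes. Ajap1, an adhesion protein that binds the receptor's extracellular domain, averaged 11.69 in Gb5-deficient and 11.43 in WT tissue (0.25; limma adjusted p = 0.535). Nedd4, a ubiquitin ligase, averaged 12.72 in Gb5-deficient and 12.49 in WT tissue (0.23; limma adjusted p = 0.524). Genotypes did not overlap for 4 of the 16 genes, against 14.9% of all genes: Ajap1, Nedd4 and Itm2c were higher and Ywhaz was lower in Gb5-deficient tissue.

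Upstream of the channels, the 17 measured of 18 Gi/o-class G protein subunits had none passing, 11 higher and 6 lower and a median log2 fold change of 0.07. The largest values in size were 0.22 for Gnb2 and 0.14 for Gnao1, the abundant alpha subunit of neuronal Go. In the list of Gb5, R7 RGS proteins and their partners all 9 had a single-gene probe, and 7 lay above the low-signal filter. Gnb5 fell and the other 6 did not pass, with 5 higher, 1 lower and a median of 0.21 over those 6. The 1 lower was Rgs7bp (-0.19), which like Gpr158 (0.02) is a partner of R7 RGS proteins and not itself one. The RGS genes Rgs6, Rgs7, Rgs9 and Rgs11 were all higher. Genotypes did not overlap for 2 of the 6, Rgs11 and Rgs7, against 14.9% of all genes. Rgs11, an R7 family member, had 0.54, with an interval from 0.11 to 0.98 (limma adjusted p = 0.553). Rgs7 had 0.26, with an interval from 0.01 to 0.50 (limma adjusted p = 0.574).

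Effectors of GABA-B signalling other than GIRK, among them calcium channels, adenylyl cyclases and two-pore potassium channels, had 13 of 16 measured and none passing, with 10 higher, 3 lower and a median log2 fold change of 0.06. Kcnq3, an M-current potassium channel, had 0.21 and Kcnk2, the two-pore channel TREK-1, had 0.20 (limma adjusted p = 0.574). Genes of GABA synthesis, vesicle loading, uptake and breakdown had 8 of 9 measured and none passing, with 2 higher, 6 lower and a median of -0.07. Slc32a1, the vesicular GABA transporter, had 0.17 and Aldh5a1, which completes GABA breakdown, had -0.17 (limma adjusted p = 0.574); the mean of the interneuron markers, given above, was higher on Gb5-deficient arrays, with Grm2 the only 1 of the 6 whose genotypes did not overlap, and its part in the Slc32a1 value was not tested. Gad1, a GABA-synthesizing enzyme on both lists, averaged 11.25 in Gb5-deficient and 11.35 in WT tissue.

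Relatives of the members outside the pathway were read as well. Of the inward rectifiers other than GIRK all 11 had a single-gene probe, and 8 lay above the low-signal filter. None of the 8 passed, with 5 higher, 3 lower and a median log2 fold change of 0.09. Genotypes did not overlap for 3 of the 8, against 14.9% of all genes: Kcnj4 and Kcnj8 were higher and Kcnj10 was lower in Gb5-deficient tissue. Kcnj4, a classical inward rectifier, averaged 5.58 in Gb5-deficient and 5.18 in WT tissue, a log2 fold change of 0.40 with an interval from 0.14 to 0.67 (limma adjusted p = 0.491). Kcnj8, the pericyte and smooth muscle channel subunit, had 0.33 (limma adjusted p = 0.574). KCTD genes other than the members had 15 of 15 measured and none passing, with 9 higher, 6 lower and a median of 0.02. Kctd21 had -0.50, with an interval from -0.83 to -0.18 (limma adjusted p = 0.479), and Kctd13 had 0.35 (limma adjusted p = 0.574). Genotypes did not overlap for 2 of these 15 KCTD genes. In the lists above, the counts were 2 of 8 GABA synthesis and breakdown genes, 1 of 13 effectors and 0 of 17 Gi/o-class subunits.

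Without Gb5-deficient array 6 no listed gene other than Gnb5 passed (lowest limma adjusted p = 0.918). List medians then lay between -0.02, for the GABA synthesis and breakdown genes, and 0.19, for the R7 RGS proteins and their partners without Gnb5. The median for all genes was 0.03. The binding and trafficking list had a median of 0.07. Slc32a1 then had 0.08, Aldh5a1 -0.11, Kcnj8 0.24 and Rgs11 0.40, while Ajap1 had 0.29, Kcnj4 0.42 and Kctd21 -0.51.

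**Figure D5:**
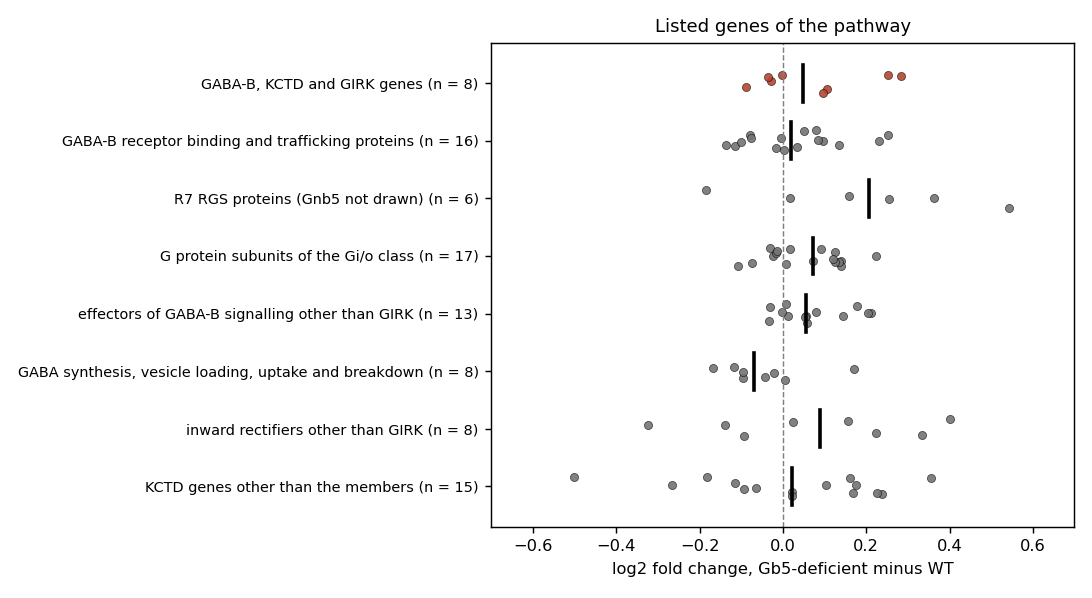
Log2 fold change, Gb5-deficient minus WT (horizontal axis), of the 8 GABA-B, KCTD and GIRK genes (top, red) and of the 7 lists (grey). Listed genes are drawn where they lay above the low-signal filter, and a black bar gives the median of each row. The row of R7 RGS proteins also holds their partners Rgs7bp and Gpr158. Points are spread vertically for legibility only. Gnb5, at -5.35, is not drawn, and the other genes lie between -0.50 and 0.54.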

How the data were processed

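RNA of 3 Gb5-deficient and 3 WT mice was measured on 6 single-colour Affymetrix arrays. The authors deposited log2 values, 1 for each probe on each array. The submitters' processing notes name RMA and Partek and give no version. RMA corrects background and quantile-normalizes, which hides any global change in RNA amount. Detection calls, scanner files and scan dates were not used here. The design text calls the mice biological replicates.

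The 45101 probes include 64 controls. The platform annotation names 1 gene for 34945 probes, several for 932 and none for 9160; Entrez identifiers gave current symbols from a RefSeq table (GRCm38.p6), which held 34741 of the single-gene probes, and 204 kept theirs. Coordinates are from RefSeq, since the build of the probe design is not given in the sources used here.

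Genes were tested with limma 3.58.1 in R 4.3.3 (empirical Bayes with intensity trend, two-sided, Benjamini-Hochberg, threshold 0.05). Each gene took its probe of highest mean, and 4126 of 18193 genes below the 30th percentile of probe means were removed, leaving 14067. Every non-control probe was also tested without a filter. Intervals are 95%. The fit was tested on simulated data. Subunit balances used exact permutation tests. The number of arrays limits precision.

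The members and lists were chosen with earlier results of these data known. Named genes were all members, Gnb5, every passing gene and the 2 of largest change in each list, and the 3 genes most like the most variable member. Some markers and some listed genes whose genotypes did not overlap were named as well. Alternatives were other filters, a further quantile normalization, median subtraction, other variance models, array weights, the mean of probes, a threshold of 0.1 and each array left out.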

Additional observations from a re-analysis of the deposited data

How the results depend on the processing

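No member gene or probe passed under any alternative run, and of 495 alternative values 452 kept their direction and their side of the threshold, none gained or lost significance, and 32 changed sign. The count of passing genes was 8 with no filter and 3 with a filter at the 50th percentile, where 5 members were tested, their median log2 fold change was -0.028 and 0 of the listed pathway genes passed (1, Gnb5, in each other alternative), since 3 members and Gnb5 lie below that filter. With the mean of a gene's probes 6 members were above the filter. Leaving out each array gave 2 to 10 passing genes (10 without WT array 1, 8 without Gb5-deficient array 4, 2 without array 6), and a median of the member genes between -0.020 (without Gb5-deficient array 4) and 0.11 (without WT array 1). With all 6 arrays kept, signs changed for values near 0: with array weights Gabbr1 was 0.00062, Kctd12b 0.046 and Kctd8 0.060, and Kctd8 was 0.13 with the mean of probes. Among probes, a dim Kcnj9 probe was -0.0024 after a further quantile normalization and -0.013 with array medians subtracted, the dimmer Kctd12b probe was -0.0051 with array medians subtracted, and with array weights the brighter Kctd12b probe was 0.023 and the brighter Kctd8 probe 0.027. The other 23 sign changes came with 1 array left out. Some of these were of values further from 0, such as Kcnj9 (0.28 with all 6 arrays) and Kcnj6 minus Kcnj9 (-0.19). Ranges were -0.23 to 0.023 for Kcnj3, -0.029 to 0.52 for Kcnj9, -0.14 to 0.11 for Kctd12b, -0.088 to 0.15 for Kctd8 and -0.43 to 0.14 for Kcnj6 minus Kcnj9. For other probes they were -0.38 to 0.065 and -0.065 to 0.023 (Gabbr1), -0.16 to 0.13, -0.087 to 0.10 and -0.084 to 0.11 (Kcnj9), -0.12 to 0.18 (Kctd12b), -0.35 to 0.032 (Kcnj3) and -0.024 to 0.10 (Kcnj6). Causes were not tested. No paired analysis was possible because the arrays of the genotypes share no replicate number.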
